A study of Mus musculus with 10 samples.

Results

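The endoplasmic reticulum (ER) stress sensors and their closest partners were followed in pancreatic islets, the clusters of insulin-secreting beta cells and other endocrine cells. The set held 10 genes, chosen by symbol from the 27665 genes of the deposited table: Ern1, Xbp1, Eif2ak3, Atf6, Atf6b, Creb3, Creb3l1, Creb3l2, Mbtps1 and Mbtps2. All 10 were in the table and all 10 were among the 15104 genes with enough reads to test. The islets came from 10 male mice of the inbred strain C57BL/6J, for which the labels name no other allele. Feeding began at 8 to 10 weeks of age and lasted 4 weeks, with a western diet in 5 mice and standard chow in 5. Islets were processed as soon as they were isolated, and each mouse gave 1 RNA sequencing library. The series title names IRE1 alpha, the protein of Ern1, and Golgi expansion as beta cells begin to compensate. The comparison addressed here is that of the diets.

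The unfolded protein response adjusts the ER to its load of newly made protein, which in beta cells is mostly proinsulin. IRE1 alpha is a kinase and RNase of the ER membrane that excises a short intron from Xbp1 mRNA, so that the active transcription factor XBP1 can be made. PERK, encoded by Eif2ak3, phosphorylates the translation initiation factor eIF2 alpha, which slows translation and favours that of ATF4. ATF6 and its relatives ATF6B, CREB3, CREB3L1 and CREB3L2 are membrane-bound transcription factors. They travel to the Golgi, where the site-1 protease (Mbtps1) and the site-2 protease (Mbtps2) release the part that enters the nucleus. These sensors are regulated largely after transcription, and the values below are mRNA levels.

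The Xbp1 intron is shown because a gene count cannot see its removal. In the transcript Xbp1-201 (GRCm38), 7 positions held the cleavage letters CNGCAG, and 2 pairs of them lay 26 bases apart. Removal of only one of these stretches lengthened the reading frame, from 267 to 371 codons. It lies in exon 4 of 5, at chr11:5524279-5524304 on the plus strand. Below, the 26 removed bases are in capitals, with 24 bases of exon in lower case on each side.
Xbp1 intron: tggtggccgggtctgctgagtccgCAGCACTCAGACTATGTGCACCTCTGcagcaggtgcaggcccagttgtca
Reads from both forms enter the same Xbp1 count, so none of the values below says how much Xbp1 was spliced.

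In what follows a mean level is followed by its SD over the 5 mice of the diet (n = 5 each), and a log2 fold change by its SE. Where a pair of means names no diet, western diet comes first. Total counts ran from 16532518 to 23902681 per library. All 5 chow mice shared cage 3, while 4 western diet mice were in cage 4 and 1 in cage 2, so diet and cage cannot be told apart. Values are given below for western diet cage 4 mice 1, 2, 5 and 4, in that order, then for the cage 2 mouse, and for chow mice 1 to 5. On the first principal component chow mouse 1 lay farthest out, at 34.2. The western diet library closest to the chow ones was that of cage 2, at -7.52. Chow mice 4 and 5 were at 6.16 and 7.41. Beta cell markers summed to 242551 to 277410 CPM (counts scaled to library size) on western diet and 231802 to 267887 on chow, with 2 of 10 called higher and 2 lower. Immediate early and heat shock genes were all called lower on western diet (12 of 12), and their sums of 8915 to 11013 CPM did not overlap the 16076 to 19902 on chow. The cage 2 mouse held the lowest of these sums and chow mouse 1 the highest. Endothelial markers summed to 323 to 376 CPM on western diet and 378 to 417 on chow, with 1 of 6 called lower. For acinar markers, the sums were 740.2 to 5422 and 651 to 2623 CPM, with 0 of 10 called. No marker was at 0 in every library. What part these differences have in the results below was not tested, except where acinar markers entered a fit as a covariate.

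Eif2ak3, Atf6b and Creb3 were higher on western diet, while Ern1, Xbp1, Atf6 and Creb3l2 had higher means that did not pass the test. Creb3l1 and both protease genes had nearly equal means on the diets. The count of 3 called higher stands beside 5.27% of all 15104 tested genes called higher, and 0 of the 10 genes were among the 5.5% called lower (quasi-likelihood test of edgeR with Benjamini-Hochberg adjustment, p under 0.05). At an unadjusted p under 0.05, 7 of the 10 were higher, beside 13.7% of all tested genes. The median log2 fold change of the 10 genes, western diet over chow, was 0.17, with 10 of 10 above 0. Over all tested genes the median was 0.0050 and 51.0% were above 0. In islet tissue a lower or higher share of a cell type and a change of RNA within its cells cannot be told apart.

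**Figure D1:**
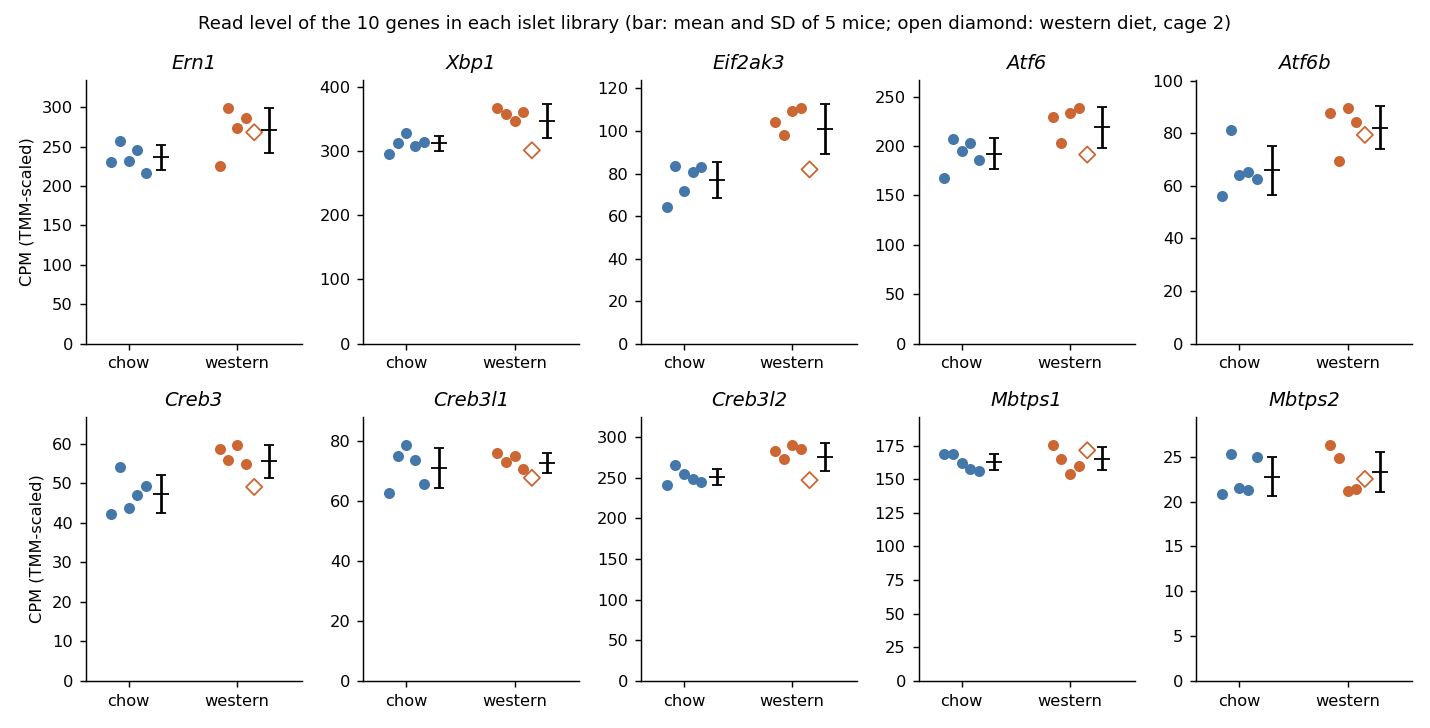
CPM of each gene (y axes from 0) in the 5 chow and 5 western diet libraries, with the mean and SD of each diet. Open diamonds mark the western diet mouse of cage 2, which was the lowest of its diet for 6 of the 10 genes, and in no gene did the diets fully separate.

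In the IRE1 branch, neither Ern1 nor Xbp1 passed the test. The intervals of both lay above 0, but intervals here are not adjusted over the genes tested, as the calls are. Ern1 (ENSMUSG00000020715, GRCm38 chromosome 11, 106394650 to 106487852, minus strand) encodes the sensor itself. Its level was 225, 299, 274, 287 and 268 CPM on western diet and 231, 257, 232, 246 and 216 CPM on chow. Mouse 1 of cage 4 fell among the chow values and the other four western diet libraries lay above all chow libraries. The means were 271 ± 28.2 and 237 ± 15.8 CPM, a log2 fold change of 0.19 ± 0.07 (SE, 95% interval 0.05 to 0.34, edgeR adjusted p = 0.0731). With that mouse, its lowest western diet library, left out Ern1 was called (edgeR adjusted p = 0.0118). It was also called without chow mouse 2, its highest chow library (edgeR adjusted p = 0.0469). Of 10 fits that left out a mouse these 2 called Ern1, and edgeR adjusted p reached 0.174 in the others.

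Xbp1 (ENSMUSG00000020484, chromosome 11, 5520659 to 5525893, plus strand) was, per length, the most abundant of the 10 mRNAs. It stood at 368, 359, 348, 361 and 302 CPM on western diet and at 296, 314, 329, 309 and 314 CPM on chow. The 4 libraries of cage 4 lay above every chow library, and the cage 2 mouse lay below 4 of the 5. Mean levels were 347 ± 26.5 and 312 ± 11.9 CPM, with a log2 fold change of 0.15 ± 0.05 (SE, 95% interval 0.04 to 0.27, edgeR adjusted p = 0.0779). Leaving out the cage 2 mouse brought it past the threshold (edgeR adjusted p = 0.0121), as did leaving out that mouse and chow mouse 1 together (0.0331). The cage 2 mouse was the lowest western diet library for Xbp1. Of 10 fits that left out a mouse, 1 called Xbp1, and edgeR adjusted p reached 0.203 in the others.

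Eif2ak3 (ENSMUSG00000031668, chromosome 6, 70844515 to 70905245, plus strand), the PERK gene, had the largest difference of the set. Western diet libraries held 104, 98.2, 109.6, 111 and 81.9 CPM, and chow libraries held 64.4, 83.8, 71.9, 80.9 and 83.1 CPM. Only the cage 2 mouse, at 81.9 CPM, lay within the range of the chow libraries. Mean Eif2ak3 was 101 ± 11.8 on western diet and 76.8 ± 8.39 CPM on chow, 1.31-fold higher. The log2 fold change was 0.39 ± 0.09 (SE, 95% interval 0.20 to 0.59, edgeR adjusted p = 0.0145). This was the one gene of the set that was called with each of the 10 mice left out in turn, with edgeR adjusted p from 8.4e-04 to 0.0429. Gm43292, on the opposite strand, shares 485 exonic bases with Eif2ak3 and had at most 35 counts in a library.

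The 250 bases before the start of Eif2ak3 are shown because this gene differed most between the diets and because of a feature noticed in them. From the RefSeq promoter table (GRCm38.p6), the stretch is chr6:70844265-70844514 on the plus strand, with each CCAAT on either strand in capitals (ATTGG where it lies on the minus strand).
Eif2ak3 upstream: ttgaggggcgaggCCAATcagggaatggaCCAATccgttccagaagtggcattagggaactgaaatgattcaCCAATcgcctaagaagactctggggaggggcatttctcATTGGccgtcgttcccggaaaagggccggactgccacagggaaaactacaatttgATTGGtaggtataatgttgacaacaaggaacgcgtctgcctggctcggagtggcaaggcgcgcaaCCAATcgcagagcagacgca
CCAAT is the core of the binding sequence of the factor NF-Y. It occurred 6 times here, 4 times on the plus strand, and at least 6 copies were found in 26 of 32851 promoter windows of 300 bases (0.0791%).

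Promoter windows were matched for 8 of the 10 genes, Atf6 and Creb3l1 being the others. The ER stress element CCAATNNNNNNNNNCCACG, searched on both strands, was in 0 of the 8 and in 0.119% of all windows. ATTGGNCCACG, the second ER stress element, was in 0 of the 8 and in 0.0365% of all windows. The core of the unfolded protein response element TGACGTGG was in 0 of the 8 (0.676% of all windows), and the cyclic AMP response element TGACGTCA was also in 0 (1.79%). CCAAT alone, part of the first element and, as ATTGG, of the second, was in Eif2ak3, Creb3l2 and Atf6b, and in 37.4% of all windows. CCACG alone, part of both ER stress elements, was in Creb3, Mbtps1 and Ern1, and in 32.8% of all windows.

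Of the ATF6 pair, Atf6b was called higher and Atf6 was not. Atf6 (ENSMUSG00000026663, chromosome 1, 170704674 to 170867771, minus strand) encodes the ER-resident activator of chaperone genes. Its libraries held 229, 203, 233, 239 and 191 CPM on western diet and 168, 207, 195, 204 and 186 CPM on chow. A western diet mouse in each cage lay within the chow range, and 3 lay above it. Mean Atf6 was 219 ± 20.6 and 192 ± 15.7 CPM, a log2 fold change of 0.19 ± 0.07 (SE, 95% interval 0.05 to 0.33, edgeR adjusted p = 0.0812). Atf6 was called without the cage 2 mouse (edgeR adjusted p = 0.0249) and with acinar markers as a covariate (0.0303). That mouse was its lowest western diet library. Of 10 fits that left out a mouse, 1 called Atf6, and edgeR adjusted p reached 0.216 in the others.

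Atf6b (ENSMUSG00000015461, chromosome 17, 34647146 to 34655074, plus strand) encodes the ATF6 relative that is known as the weaker activator. Levels were 87.8, 69.4, 89.6, 84.2 and 79.3 CPM on western diet and 56.2, 81.1, 64.2, 65.4 and 62.5 CPM on chow. Chow mouse 2 stood among the western diet libraries, and the other four chow libraries lay below all of them. The means of Atf6b were 82.1 ± 8.06 and 65.9 ± 9.23 CPM, with a log2 fold change of 0.32 ± 0.09 (SE, 95% interval 0.12 to 0.51, edgeR adjusted p = 0.0432). Its call held without mouse 2 of cage 4 (edgeR adjusted p = 0.0172) or chow mouse 2 (0.0027). It was lost without the cage 2 mouse (edgeR adjusted p = 0.0570), any of the cage 4 mice 1 (0.0972), 5 (0.0969) and 4 (0.0975), or chow mouse 1 (0.0918), 3 (0.0940), 4 (0.0783) or 5 (0.0866).

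The CREB3 family, named for its likeness to the cyclic AMP response element binding proteins, is known for driving genes of the secretory pathway. Creb3 (ENSMUSG00000028466, chromosome 4, 43562332 to 43567060, plus strand) was at 58.7, 55.9, 59.6, 54.8 and 49.1 CPM on western diet and at 42.1, 54.1, 43.8, 47.1 and 49.3 CPM on chow. Only the cage 2 mouse lay within the chow range, and the lowest 3 chow libraries lay below all western diet libraries. Mean Creb3 was 55.6 ± 4.15 and 47.3 ± 4.74 CPM, a log2 fold change of 0.23 ± 0.07 (SE, 95% interval 0.09 to 0.38, edgeR adjusted p = 0.0404). Creb3 was called in 3 of 10 fits that left out a mouse: without the cage 2 mouse (edgeR adjusted p = 0.0146), chow mouse 2 (0.0131) or chow mouse 5 (0.0485). The call was lost without cage 4 mouse 1 (edgeR adjusted p = 0.0900), 2 (0.0727), 5 (0.0986) or 4 (0.0757), or chow mouse 1 (0.119), 3 (0.109) or 4 (0.0709).

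Reads of Creb3 are uncertain, since it shares exonic bases with neighbours on the opposite strand and whether counting used strand is not given here. It shares 360 bases with Tln1, which encodes the cytoskeletal protein talin. Tln1 was at 148 ± 5.65 CPM on chow and 171 ± 17.4 on western diet, and passed the test at 0.21 ± 0.06 (log2, SE, edgeR adjusted p = 0.0349). Another 133 bases are shared with Gba2, which encodes a glucosylceramidase, at 29.0 ± 2.16 CPM on chow and 29.8 ± 2.40 on western diet (log2 difference 0.04 ± 0.07 SE, adjusted p = 0.791 by edgeR).

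Creb3l2 (ENSMUSG00000038648, chromosome 6, 37327255 to 37442146, minus strand) was, per length, the most abundant family member. Western diet libraries ranged from 247 to 290.0 CPM and chow libraries from 241 to 266 CPM. The 4 libraries of cage 4 lay above all chow libraries. Means were 276 ± 17.3 and 251 ± 9.66 CPM, with a log2 fold change of 0.13 ± 0.05 (SE, 95% interval 0.03 to 0.24, edgeR adjusted p = 0.0963). It was called without the cage 2 mouse, its lowest western diet library (edgeR adjusted p = 0.0279). Of 10 fits that left out a mouse, 1 called Creb3l2, and edgeR adjusted p reached 0.227 in the others. Creb3l1 (ENSMUSG00000027230, chromosome 2, 91982328 to 92024502, minus strand), also known as OASIS, ranged from 67.8 to 76.1 CPM on western diet and from 62.8 to 78.7 CPM on chow. Every western diet library lay within the chow range. The log2 fold change of Creb3l1 was 0.03 ± 0.06 (SE, adjusted p = 0.816 by edgeR), and its 95% interval ran from -0.10 to 0.16.

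The protease genes showed no detectable difference, and their intervals bound its size. Mbtps1 (ENSMUSG00000031835, chromosome 8, 119508156 to 119558735, minus strand), the gene of the site-1 protease, ranged from 154 to 175 CPM on western diet and from 156 to 169 CPM on chow. Its log2 fold change was 0.02 ± 0.05 (SE, 95% interval -0.08 to 0.12, edgeR adjusted p = 0.818). Mbtps2 (ENSMUSG00000046873, chromosome X, 157535371 to 157598715, minus strand), the gene of the site-2 protease, had the lowest counts of the set, 349 to 589 per library. Its levels of 21.2 to 26.3 CPM on western diet and 20.9 to 25.3 CPM on chow overlapped almost fully. The log2 fold change of Mbtps2 was 0.03 ± 0.08 (SE, 95% interval -0.14 to 0.20, edgeR adjusted p = 0.869). Yy2, on the same strand, shares 2867 exonic bases with Mbtps2 and was absent from the deposited counts, so these reads are uncertain as well.

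**Figure D2:**
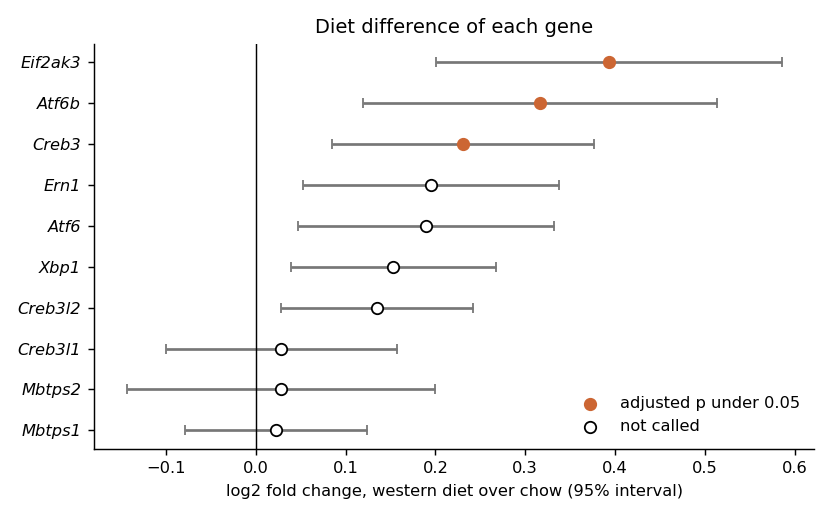
Log2 fold change of western diet over chow (x axis) for each gene, with 95% intervals from the edgeR fit over all tested genes. The intervals are not adjusted over genes, as the calls are. Filled points are the 3 genes with an adjusted p under 0.05, and the intervals of Creb3l1, Mbtps1 and Mbtps2 include 0.

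In none of the 10 genes were all western diet libraries above all chow libraries, a pattern found in 4.44% of tested genes. Without the cage 2 mouse it was found in 4 of the 10 (Xbp1, Eif2ak3, Creb3 and Creb3l2), beside 7.28% of tested genes. For this overlap the mouse was picked after its values were seen. It was the lowest western diet library in 6 of the 10 genes, those 4 among them, beside 22.1% of tested genes. Leaving it out therefore favours these genes, and the shares without it are no fair contrast. Chow mouse 1 was the lowest chow library in 8 of the 10, beside 24.4%. In log2 CPM the cage 2 mouse lay on average 0.11 below its diet's mean over the 10 genes, with 1 of 10 above it. For chow mouse 1 the mean deviation was -0.12, also with 1 of 10 above, and chow mouse 2 was above its diet's mean in 10 of 10, by 0.13 on average. Without the cage 2 mouse, edgeR called 5 of the 10 higher (Xbp1, Eif2ak3, Atf6, Creb3 and Creb3l2), beside 921 of 15314 tested genes. With that mouse and chow mouse 1 both left out, 3 were called higher (Xbp1, Eif2ak3 and Creb3), beside 611 of 15038 tested genes.

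The authors' deposited table, which holds their own comparison of the diets, has the same 3 genes at an adjusted p under 0.05. There, 3.39% of 27577 genes with a p-value were higher at that threshold. In the authors' deposited table the adjusted p was 5.9e-04 for Eif2ak3, 0.0105 for Atf6b and 0.0341 for Creb3. Xbp1 (0.0546), Ern1 (0.0561), Creb3l2 (0.0635) and Atf6 (0.0666) fell just short in the authors' deposited table.

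Levels of different genes were compared per length, with the deposited FPKM, which divide a count by gene length and by 1 number per library. Xbp1 was far above the rest at 96.2 ± 3.77 FPKM on chow and 107 ± 8.18 on western diet, and did not overlap the next gene. Creb3l2 followed at 34.5 ± 1.37 FPKM on chow and 37.8 ± 2.28 on western diet, then Ern1 at 29.0 ± 1.96 on chow and 33.1 ± 3.46 on western diet. Creb3l2 and Ern1 overlapped on western diet and not on chow. Atf6b was at 23.9 ± 3.38 FPKM on chow and 29.7 ± 2.82 on western diet, and Creb3l1 at 27.4 ± 2.58 on chow and 27.8 ± 1.26 on western diet. These neighbours overlapped on both diets, and which of them had the higher mean differed between the diets. Atf6 (chow 20.8 ± 1.72, western diet 23.7 ± 2.17 FPKM) and Creb3 (chow 19.9 ± 2.01, western diet 23.4 ± 1.70 FPKM) overlapped on both.

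Eif2ak3 and Mbtps1 were next, and their order also differed between the diets. On chow, Mbtps1 at 15.4 ± 0.566 FPKM lay above Eif2ak3 at 12.8 ± 1.40 with no overlap . On western diet Eif2ak3 had the higher mean, 16.7 ± 1.91 against 15.6 ± 0.858 FPKM, and the ranges overlapped. Mbtps2 was lowest, at 2.25 ± 0.216 FPKM on chow and 2.30 ± 0.227 on western diet. Ranks were the same when CPM were divided by gene length, which uses the same counts and lengths and is no independent check.

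**Figure D3:**
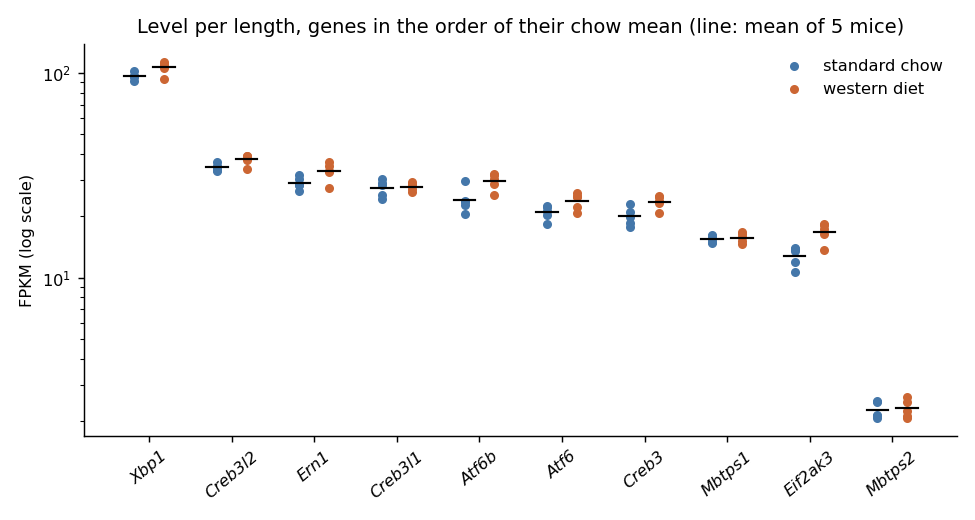
FPKM (log axis) of each gene in the 10 libraries, with a line at the mean of each diet. Xbp1, at 96.2 FPKM on chow, lies above all others and Mbtps2, at 2.25, below all others.

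Whether the sensor mRNAs changed relative to each other was examined with log2 ratios of CPM within a library. Eif2ak3 rose relative to Atf6. The log2 ratio of Eif2ak3 to Atf6 was -1.13, -1.05, -1.09, -1.11 and -1.22 in the western diet libraries and -1.38, -1.31, -1.44, -1.33 and -1.16 in the chow libraries. The cage 2 mouse and chow mouse 5 were the 2 libraries that crossed. The difference was 0.21, western diet minus chow (two-sided exact permutation p = 0.0159, 0.0238 adjusted over 6 ratios). For Eif2ak3 relative to Ern1 the difference of 0.20 did not pass the test (exact permutation p = 0.183, adjusted 0.219). Ern1 relative to Atf6 differed by 0.0025 (exact permutation p = 0.976), with western diet libraries from -0.03 to 0.56 and chow libraries from 0.22 to 0.46.

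Hspa5, which encodes BiP, the ER chaperone that binds the sensors' lumenal parts in unstressed cells, fell relative to all 3 sensors. Its own level was 2505 ± 328 CPM on western diet and 4312 ± 721 on chow, or -0.78 ± 0.13 on the log2 scale (SE, edgeR adjusted p = 0.0073). The log2 ratio of Hspa5 to Eif2ak3 was 4.53 to 4.75 on western diet and 5.46 to 6.34 on chow, a difference of -1.17. Relative to Ern1 the difference was -0.97, and relative to Atf6 it was also -0.97. Each of the 3 had a two-sided exact permutation p of 0.00794 (adjusted 0.0159, n = 5 per diet), the smallest that 252 arrangements can give, and the diets did not overlap in any. Of these libraries, the cage 2 mouse had the lowest Hspa5 ratio to Ern1 and to Atf6 and chow mouse 1 the highest to all 3. The immediate early and heat shock sums given above were extreme in the same 2 libraries. The part of those genes' decrease in the ratios was not tested.

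**Figure D4:**
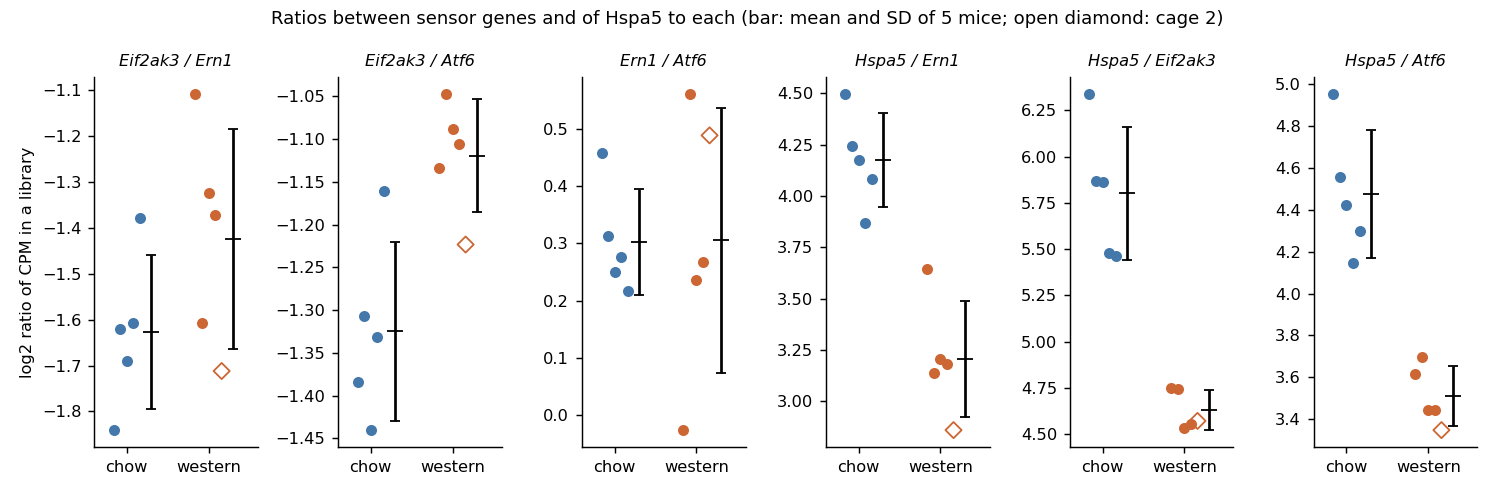
Log2 ratio of CPM within each library (y axis; scales differ between panels) for 6 gene pairs, with the mean and SD of 5 mice per diet. The 3 ratios of Hspa5 separate the diets completely, and the ratio of Eif2ak3 to Atf6 is higher on western diet by 0.21.

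Variation between mice within a diet was described by correlating the 10 genes over the 10 libraries after each diet's mean was removed. Of 45 pairs 36 had a positive Pearson r, and the share of positive pairs among all tested genes was not computed. For Atf6 and Creb3l2 r was 0.87 (exact permutation p = 0.00104, adjusted over 45 pairs 0.0469, n = 10), the one pair called by r. Spearman's rank correlation for that pair was 0.92 (adjusted exact permutation p = 0.0531), and r was 0.75 without the 2 libraries farthest from the median. Eif2ak3 had an r of 0.86 with Atf6 and 0.86 with Creb3 (both with an adjusted exact permutation p of 0.0542, n = 10), falling to 0.55 and 0.66 without 2 libraries. No pair was called by rank correlation (0 of 45). All genes of a library share its depth and scaling.

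No relation between Ern1 and Xbp1 was detected, with an r of -0.09 and a rank correlation of -0.12 (exact permutation p = 0.801 and 0.779, n = 10). The r of Ern1 with the other 9 genes ran from -0.30 to 0.13. Some of these low values depended on few libraries. Without the 2 libraries farthest from the median of Ern1, r was 0.70 with Atf6b, 0.62 with Atf6, 0.53 with Creb3l2 and 0.47 with Creb3l1. It was 0.37 with Creb3, 0.34 with Eif2ak3, 0.16 with Xbp1, 0.14 with Mbtps1 and -0.10 with Mbtps2. Xbp1 had an r of 0.80 with Creb3l2 and 0.68 with Eif2ak3 (adjusted exact permutation p = 0.159 and 0.185, n = 10). Without the 2 libraries farthest from the median these became 0.09 and -0.54, so the relations rest on those libraries.

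Among 10388 protein-coding genes of at least 5 CPM, the mRNA most like Xbp1 within the diets was Atf4, with an r of 0.97 over 10 libraries. Atf4 encodes the transcription factor of the PERK branch. Next came Pttg1ip, with an r of 0.92. For Ern1 the nearest were the kinesin gene Kif13a (0.94), the transport adaptor gene Trak1 (0.93) and Arhgef3 (0.93). They are the highest of many correlations and are given as a description. None of them was recomputed without the libraries farthest from the median.

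**Figure D5:**
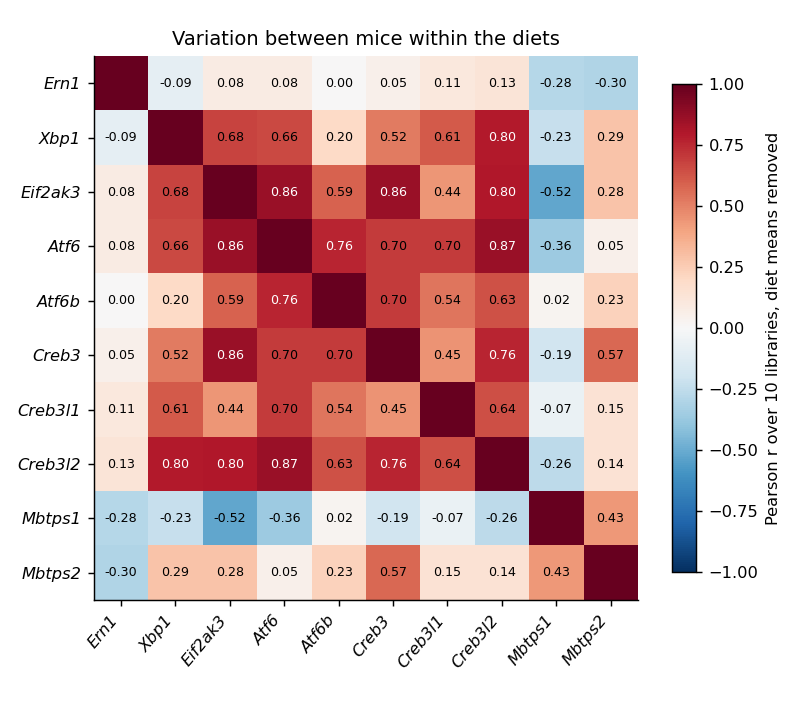
Pearson r between each pair of genes over 10 libraries with diet means removed (colour and printed value). Atf6 and Creb3l2 have the highest value, 0.87, while Ern1 stays between -0.30 and 0.13 with all others.

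The other genes of each branch were read as lists, beside the 5.27% of tested genes called higher and 5.5% called lower. The lists were chosen with earlier results of these data known. Hspa5, which fell, was placed among ATF6 targets and not among those of XBP1. Genes known as targets of spliced XBP1, which carry out translocation, folding and export, were called higher in 18 of 35 and lower in 0, with a median log2 fold change of 0.29. Ckap4, an ER sheet protein, rose from 44.8 ± 3.22 to 60.6 ± 4.03 CPM (0.43 ± 0.06 on the log2 scale, SE, edgeR adjusted p = 4.4e-04). The KDEL receptor gene Kdelr2 rose by 0.33 ± 0.06, the signal recognition particle gene Srp19 by 0.41 ± 0.09 and the COPII coat gene Sec24d by 0.49 ± 0.10 (log2, SE). These 4 were called with any mouse left out. The count of 18 ran from 8, without western diet cage 4 mouse 4 or chow mouse 3, to 29 without chow mouse 2. It was 9 without western diet cage 4 mouse 1 or mouse 5, 11 without cage 4 mouse 2 or chow mouse 5, and 21 without the cage 2 mouse and chow mouse 1.

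Partners of IRE1 alpha and the ligation of Xbp1 mRNA had 1 of 11 called higher and 0 lower, with a median of 0.03. That gene was Sec63 (0.19 ± 0.06 on the log2 scale, SE, edgeR adjusted p = 0.0380), a translocon component, and its call held in 3 of 10 fits that left out a mouse, without the cage 2 mouse, chow mouse 2 or chow mouse 4 (edgeR adjusted p 0.0119 to 0.119 over the 10). Sec63 was counted above among the XBP1 targets called higher too. Fam98b, Ptpn1 and Ddx1 had log2 fold changes of 0.15, 0.09 and 0.05 and were not called. Ern2, the epithelial paralog of Ern1, had at most 5 counts in a library and was too low to test.

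Targets of ATF6 other than Xbp1 had 1 of 14 called higher and 1 lower, with a median of -0.09. Leaving out a mouse gave 0 to 2 called higher and 1 to 4 lower. There were 2 higher without the cage 2 mouse or chow mouse 2, and 0 without cage 4 mouse 5 or 4 or chow mouse 1, 3 or 5. There were 3 lower without chow mouse 4 and 4 without chow mouse 5. With all mice, Hspa5 was the gene that fell. Sel1l, a scaffold of ER-associated degradation, rose by 0.23 ± 0.06 (log2, SE, edgeR adjusted p = 0.0233) and was called in 5 of 10 fits that left out a mouse. Herpud1 was at 473 ± 51.3 CPM on western diet and 701 ± 160 on chow (-0.57 ± 0.16 on the log2 scale, SE, edgeR adjusted p = 0.0512), and the chaperone gene Hsp90b1 at -0.23 ± 0.08 (edgeR adjusted p = 0.0661). Herpud1 was called lower in 2 of 10 fits that left out a mouse and in 6 of the 10 other alternatives, with an adjusted p of 0.0070 by DESeq2. Hsp90b1 was called in 2 of each 10.

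Around PERK, other eIF2 alpha kinases and eIF2 regulators had 2 of 14 called higher and 1 lower (median 0.04). The 2 became 4 without the cage 2 mouse and stayed within 2 to 3 without any other mouse. Eif2b4, a subunit of the exchange factor of eIF2, rose by 0.35 ± 0.07 and Eif2s1, which encodes eIF2 alpha, by 0.29 ± 0.07 (log2, SE). Ppp1r15a, whose protein GADD34 directs dephosphorylation of eIF2 alpha, fell by 0.46 ± 0.06. Dnajc3, an inhibitor of PERK, was at 0.27 ± 0.10 (edgeR adjusted p = 0.0908).

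PERK targets through ATF4 had 2 of 18 called higher and 2 lower (median 0.19). The amino acid transporter genes Slc3a2 and Slc7a1 rose by 0.30 ± 0.05 and 0.32 ± 0.06 (log2, SE). Ddit3, which encodes CHOP, fell from 117 ± 36.9 to 45.7 ± 6.96 CPM (-1.36 ± 0.23 on the log2 scale, SE, edgeR adjusted p = 0.0097). The other gene that fell was Ppp1r15a, which is in both lists.

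Substrates and partners of the site-1 and site-2 proteases had 1 of 9 called higher and 3 lower (median -0.05). The sterol regulators Srebf2 and Srebf1 fell by 0.26 ± 0.05 and 0.31 ± 0.07, and Insig1, which retains them in the ER, fell by 0.32 ± 0.08 (log2, SE). Insig1 was called in 4 of 10 fits that left out a mouse. Nucb1 rose by 0.21 ± 0.05. Targets of the CREB3 family had 2 of 8 called higher and 0 lower (median 0.05): Sec24d, counted above among XBP1 targets too, and the Golgi GTPase gene Arf4 (0.25 ± 0.07, edgeR adjusted p = 0.0254). Arf4 was called in 5 of 10 such fits. The count of 2 was 1 without cage 4 mouse 1, 5 or 4 or chow mouse 1 or 3, and 3 or fewer without any other mouse. The COPII genes Sec23b and Sec31a had log2 fold changes of 0.43 ± 0.13 (edgeR adjusted p = 0.0699) and 0.11 ± 0.05 (0.148).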

How the data were processed

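The authors deposited whole-number counts of reads per gene, not normalized per the file headers. The submitters' processing notes list STAR 2.5, HTSeq 2 and DESeq2, with mm10 and GRCm38 as builds and no roles. The kit was NEBNext Ultra per the labels' protocols. FPKM in the deposited table equal the counts divided by gene length and by 1 number per library. The authors' log2 fold changes and the authors' p-values, deposited in the same table, were read only as their comparison; 88 genes had no p-value. The 10 normalized columns per sample were not used.

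Counts were tested with edgeR 4.0.16 (R 4.3.3): filterByExpr with a minimum count of 10, TMM factors, robust quasi-likelihood fit, diets as groups, no covariate, Benjamini-Hochberg adjustment over 15104 genes. CPM use TMM factors. SE are the log2 fold change over the root of F. Intervals are 95%. Ratios used log2 CPM with a prior count of 0.5. Alternatives were upper quartile or RLE factors, no filter, a mean of 5 CPM, DESeq2 1.42.0, limma-voom (limma 3.58.1), no robust moderation, an acinar covariate, mouse number as a block, and each mouse left out. Leaving out 2 mice together, the overlap of the diets without 1 mouse, and all alternatives for the lists were chosen after seeing the data. The fit was tested on simulated data.

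The 10 genes, 7 pathway lists, 8 marker lists and tests were chosen with earlier results of these data known. Named genes were the 10, Hspa5, up to 4 genes per pathway list with the smallest p at 1 CPM or more, and the 3 genes most like Ern1 or Xbp1, of which 1 is not reported here; Tln1, Gba2, Gm43292 and Ern2 were named after their values were seen. The remaining marker lists were alpha, delta and PP cells (0 of 7 called), duct (1 of 5 lower), macrophage (1 of 6 lower) and stellate cells (1 of 6 lower). All 10 genes had the same coordinates in GENCODE M21.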

Additional observations from a re-analysis of the deposited data

Results flagged for a closer look

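In 84 groups of 5 libraries, 2 held a library whose gap to its nearest neighbour was unusually large for the range of the group, where chance gives about 1 in 20. Herpud1 was at 383 CPM in the western diet mouse of cage 2, below the other four western diet libraries. Sec31a was at 364 CPM in chow mouse 2, above the other four chow libraries. None of the 20 groups of the stress sensor genes and none of the 12 groups of ratios held such a library.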

How the results depend on the processing

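All 10 genes kept 0 calls in the lower direction in every alternative. The count of 3 called higher was 1 to 5 with a mouse left out, and that of all called genes, 1627, was 938 (without chow mouse 1) to 1813. Of the 18 XBP1 targets called higher, leaving out a mouse gave 8 to 29 and DESeq2 gave 27. Mouse numbers are shared by the diets, and the labels do not say that equal numbers pair mice. Same-numbered mice had correlations of -0.129 to 0.048 and other pairs -0.206 to 0.224. So few values cannot decide whether the numbers pair mice. With the mouse number as a block, 0 of the 10 genes, 841 genes in all and 6 XBP1 targets were called, and Eif2ak3 had an edgeR adjusted p of 0.0694; it was called in the other 19 of 20 alternatives. Without the filter Atf6b was lost (edgeR adjusted p = 0.0705) and Ern1 gained (0.0445). Without robust moderation Creb3 was lost (edgeR adjusted p = 0.0523). The causes were not tested. Genes with no overlap between the diets went from 0 to 4 without the cage 2 mouse, which was picked after its values were seen. The ratio of Eif2ak3 to Atf6 and those of Hspa5 were called in 11 of 11 alternatives (differences of 0.18 to 0.25 for the former). Counting error limits Mbtps2 most, at 5.35% for its lowest count of 349.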

Other observations

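Paralogs of the sensors outside the set were read as values. The other eIF2 alpha kinase genes were Eif2ak1, which senses heme, at 40.1 ± 0.937 CPM on western diet and 38.9 ± 0.840 on chow, the double-stranded RNA sensor gene Eif2ak2 at 20.3 ± 2.55 and 22.3 ± 1.88 CPM, and the amino acid sensor gene Eif2ak4 at 26.7 ± 2.75 and 27.1 ± 2.47 CPM (SD, n = 5 per diet). Their log2 fold changes were 0.04, -0.14 and -0.02, and none was called (edgeR adjusted p = 0.626, 0.339 and 0.913). Of the remaining CREB3 relatives, Creb3l3 had 5 to 35 counts per library and Creb3l4 3 to 21. They were named after their values were seen.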
